A study of Mus musculus with 20 samples.

Results

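The 10 genes described here, Ccl25, Pex11g, Pnpla6, Trappc5, Arhgef18, Zfp358, Mcoln1, Xab2, Pet100 and Stxbp2, lie within 2 Mb of the insulin receptor gene Insr on mouse chromosome 8, out of 44674 genes in the count table. They were taken by name, for their position and with their levels in mice lacking the receptor in tanycytes and in control mice already known, and so count as chosen on that difference. It is given below as a description, with no test. All 10 were in the table of estimated counts and all 10 passed the expression filter.

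The RNA came from translating ribosome affinity purification, in which ribosomes carrying a GFP-tagged L10a subunit are precipitated (IP) from a lysate and their RNA is set beside that of the whole lysate (input). Each library was made from a pool of hypothalamic tissue holding the arcuate nucleus and median eminence. There were 3 pools of IRΔTan mice on normal chow diet (NCD), 4 pools of control mice on high-fat diet (HFD) and 3 pools of control mice on NCD, each with an IP and an input, 20 libraries in all. Mice of both sexes were injected into a lateral ventricle at 12 weeks of age and killed 4 weeks later.

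IRΔTan mice were IR fl/fl and L10a-GFP+/- and received AAV-Dio2-Cre, a virus in which the Dio2 promoter, active in tanycytes, drives Cre recombinase. In the study's text the controls were IR wt/wt, L10a-GFP+/- mice given the same virus, whereas the sample labels name them IRmKate2, a name the study elsewhere gives to IR fl/fl mice whose virus lacked Cre. All groups carried the L10a-GFP reporter, whose expression depends on Cre in the paper. A virus without Cre would have left no tagged ribosomes to precipitate. In NCD control IPs, 12 of 15 tanycyte markers were called higher than in input (median log2 ratio 3.42), where 33.9% of all tested genes were. In HFD control IPs 11 of 15 were (median 2.94), where 27.7% of all tested genes were. All 10 ependymal markers were also higher, with medians of 5.67 in NCD and 4.29 in HFD control IPs. Of 5 choroid plexus markers, 3 were higher in NCD and 1 in HFD control IPs. The enrichment was thus not of tanycyte markers alone. Insr, given below, was higher in every control IP than in any IRΔTan IP. These values go with controls given Cre and keeping the receptor gene, as in the study's text, but genotype was not tested. With IR wt/wt controls, the floxed allele and the loss of the receptor came together in IRΔTan mice. They cannot be told apart in this design. HFD supplied 60% of calories as fat and NCD 9%, and HFD lasted 12 weeks in the paper, where it started at 4 weeks of age, and 8 weeks in the design text. Pools held 5 to 7 mice in the design text and at least 4 hypothalami in the paper.

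Genes that lie side by side need not share a function, and these 10 act in separate processes. Ccl25 is a chemokine that attracts T cells to the thymus and small intestine through the receptor CCR9. Pex11g belongs to the PEX11 family of peroxisomal membrane proteins, which act in peroxisome growth and division. Pnpla6 is neuropathy target esterase, a lysophospholipase of the endoplasmic reticulum, and Trappc5 is a subunit of the TRAPP complexes that tether transport vesicles. Arhgef18 activates the small GTPase RhoA at cell junctions, Mcoln1 is the lysosomal cation channel TRPML1, and Xab2 acts in pre-mRNA splicing and transcription-coupled DNA repair. Pet100 is needed for assembly of cytochrome c oxidase, Stxbp2 (Munc18-2) binds syntaxins in the exocytosis of secretory granules, and Zfp358 encodes a zinc finger protein.

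On GRCm38, Insr occupies chr8:3122061-3279617 on the minus strand, and every one of the 10 genes lies on the higher-coordinate side of it, where its own start is. By GENCODE gene bodies, Arhgef18 is nearest, 113.4 kb away, and Trappc5 is 396.7 kb away, so that 9 of the 10 genes fill one stretch close to Insr. A RefSeq start of Arhgef18 (window chr8:3353187-3353486) lies outside its GENCODE body and nearer to Insr. Ccl25 stands apart at 1.05 Mb (chr8:4325210-4360020). Only Pex11g (chr8:3457105-3467680) and Xab2 (chr8:3608421-3621316) are on the minus strand.

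Several of these genes share exonic bases with a gene on the opposite strand, and the library kit did not mark strand, so that reads from shared bases cannot be assigned to a strand. Pet100 shares 941 bases with Pcp2, 52.6% of its merged exon length, and Pex11g shares 1396 bases (41.1%) with the predicted gene Gm44775, not analysed here. Over all libraries Pcp2 had 318 counts, beside 9583 for Pet100. The overlap was smaller for Xab2 with Camsap3 (570 bases, 12.2%), for Trappc5 with Gm45231 (492 bases, 9.93%) and for Ccl25 with Elavl1 (204 bases, 2.74%). Arhgef18, Zfp358, Mcoln1, Pnpla6 and Stxbp2 overlap no other gene by their GENCODE bodies.

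All 10 genes matched a RefSeq start on GRCm38.p6, with 14 starts in all. Windows running 250 bases before to 50 bases after the start were searched on both strands for 4 short motifs. The GC box, written GGGCGG, was found in 8 of the 14 windows and in 35.7% of 32851 RefSeq windows of that length. The motif bound by NF-Y, written CCAAT, was found in 5 of the 14 and in 37.4% of all. The core promoter motif TATAAA was found in 2 of the 14 and in 13.6% of all. The core motif of the ETS factors, written CCGGAAG, was found in 4 of the 14 and in 8.86% of all. The 14 windows are not all separate. Those of Pet100 and Xab2 share most of their bases, so that motifs they share count in both. The first and second windows of Pnpla6 also overlap. The windows printed below belong to the genes whose levels differed most between groups, and capitals mark a match to any of the 4 motifs.

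The first start of Ccl25 (chr8:4324960-4325259, plus strand) was 74.0% G and C with 52 CpG dinucleotides, against medians of 52.7% and 7 over all windows. The second (chr8:4349338-4349637, plus strand) was 51.7% G and C with 1 CpG and alone held TATAAA. Counts were per gene and do not separate the 2 starts.
Ccl25, first start: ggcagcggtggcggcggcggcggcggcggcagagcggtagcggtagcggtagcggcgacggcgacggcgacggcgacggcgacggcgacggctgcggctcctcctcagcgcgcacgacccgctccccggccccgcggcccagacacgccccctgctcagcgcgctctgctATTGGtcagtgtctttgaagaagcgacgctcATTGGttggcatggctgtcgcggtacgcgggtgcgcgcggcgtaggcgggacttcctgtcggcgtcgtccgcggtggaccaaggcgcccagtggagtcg
Ccl25, second start: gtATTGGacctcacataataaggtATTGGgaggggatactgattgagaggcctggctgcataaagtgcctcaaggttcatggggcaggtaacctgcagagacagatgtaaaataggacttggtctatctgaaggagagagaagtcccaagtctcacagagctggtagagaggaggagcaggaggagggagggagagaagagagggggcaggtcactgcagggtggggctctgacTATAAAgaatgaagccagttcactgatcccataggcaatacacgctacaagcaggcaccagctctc

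Pex11g (chr8:3467599-3467898, minus strand) had 1 GC box and none of the other motifs. Zfp358 (chr8:3492888-3493187, plus strand) was 72.0% G and C with 2 GC boxes. Pet100 (chr8:3621301-3621600, plus strand) and Xab2 (chr8:3621247-3621546, minus strand) start back to back, so that their windows share most of their bases. The Pet100 window held 3 NF-Y motifs, 2 ETS motifs and 2 GC boxes.
Pex11g: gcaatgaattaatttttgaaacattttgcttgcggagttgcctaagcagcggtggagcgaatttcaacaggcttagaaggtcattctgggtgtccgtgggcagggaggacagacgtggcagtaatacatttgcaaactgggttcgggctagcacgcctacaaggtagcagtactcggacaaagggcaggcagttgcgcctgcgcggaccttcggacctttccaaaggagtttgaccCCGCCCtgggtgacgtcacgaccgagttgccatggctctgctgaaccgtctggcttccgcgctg
Zfp358: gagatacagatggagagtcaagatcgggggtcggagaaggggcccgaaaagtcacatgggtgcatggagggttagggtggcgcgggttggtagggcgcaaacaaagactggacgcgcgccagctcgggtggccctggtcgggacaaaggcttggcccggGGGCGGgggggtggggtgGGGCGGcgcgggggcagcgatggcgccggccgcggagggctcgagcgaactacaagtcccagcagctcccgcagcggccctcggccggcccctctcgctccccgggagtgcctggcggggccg
Pet100: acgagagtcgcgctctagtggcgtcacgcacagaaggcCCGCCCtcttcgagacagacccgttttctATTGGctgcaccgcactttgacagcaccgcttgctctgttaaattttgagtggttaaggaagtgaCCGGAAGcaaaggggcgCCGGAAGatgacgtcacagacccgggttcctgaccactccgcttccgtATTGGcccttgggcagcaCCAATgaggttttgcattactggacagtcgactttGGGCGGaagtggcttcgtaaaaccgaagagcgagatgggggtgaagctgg

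Total counts ranged from 29469000 to 48674000 in IPs and from 33234000 to 59385000 in inputs. They were 29469000 to 34715000 in HFD IPs, 42868000 to 48626000 in NCD control IPs and 36118000 to 48674000 in IRΔTan IPs. The share of counts in tested genes was 82.6% to 84.9% in HFD IPs. It was 72.8% to 75.9% in NCD control IPs and 72.4% to 75.2% in IRΔTan IPs. Insr, whose exon 4 is the deleted one and whose counts cover all exons, had 18.9, 13.2 and 21.0 CPM (counts scaled to library size, with TMM factors over all 20 libraries) in IRΔTan IPs, against 52.2, 53.6 and 50.5 CPM in NCD control IPs (log2 fold change -1.56 ± 0.13 (SE), adjusted p = 6e-05 in edgeR's quasi-likelihood test). Its input levels were 71.0 to 83.5 CPM in IRΔTan and 86.9 to 89.5 CPM in NCD controls. The 15 tanycyte markers summed to 1576 to 2007 CPM in IRΔTan IPs and 1551 to 1894 CPM in NCD control IPs. Choroid plexus markers (5 genes) varied widely between IPs of one group, from 38.9 to 591 CPM on HFD and from 87.6 to 467 CPM in IRΔTan.

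Per kilobase of merged exon, the 10 genes differed widely in level in the input of NCD controls. Trappc5 had 7.83 ± 0.28, Zfp358 7.70 ± 0.44 and Pet100 7.04 ± 0.63 CPM per kb (SD, n = 3), and these 3 did not separate beyond their SDs. Xab2 (5.23 ± 0.24 CPM per kb) and Arhgef18 (4.80 ± 0.42 CPM per kb) did not separate from each other. Below them, each level was apart from the next, with Pnpla6 at 3.27 ± 0.26, Stxbp2 at 2.51 ± 0.38, Mcoln1 at 1.79 ± 0.16, Pex11g at 1.06 ± 0.057 and Ccl25 at 0.690 ± 0.029 CPM per kb. In IRΔTan input, Ccl25 stood at 2.30 ± 0.14 and Pex11g at 1.99 ± 0.11 CPM per kb, beside 1.79 ± 0.098 CPM per kb for Mcoln1 and 1.98 ± 0.18 CPM per kb for Stxbp2. The 2 lowest genes of the control tissue thus lay among the 4 lowest in IRΔTan tissue, no longer below the others.

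**Figure D1:**
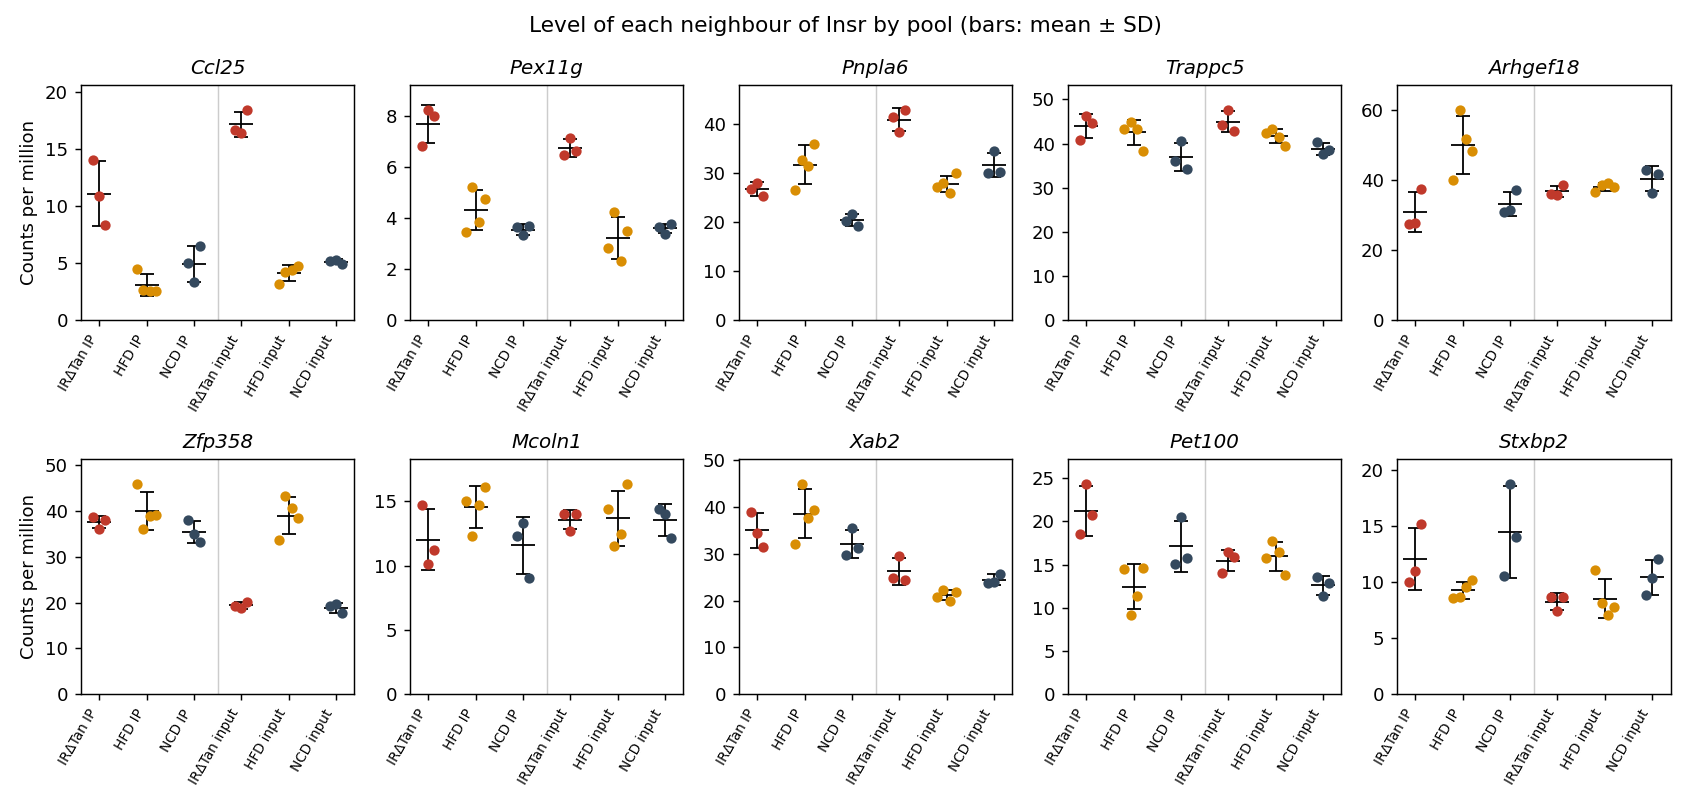
Level of each of the 10 genes in CPM (vertical axis, from 0) in every pool, with IPs left and inputs right of the grey line and IRΔTan, HFD control and NCD control from left to right in each; points are pools and bars the mean ± SD. Ccl25 and Pex11g in IRΔTan lie above every HFD and NCD control pool in both fractions, and Zfp358 in HFD input lies above both other groups.

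Ccl25 was the gene with the largest difference. In IP it had 13.99, 10.9 and 8.35 CPM in IRΔTan, against 4.51, 2.66, 2.55 and 2.57 CPM in HFD controls and 5.00, 3.34 and 6.50 CPM in NCD controls. In input it had 16.6, 16.4 and 18.4 CPM in IRΔTan, against 3.16, 4.20, 4.43 and 4.72 CPM in HFD controls and 5.20, 5.32 and 4.90 CPM in NCD controls. Every IRΔTan pool was above every control pool of either diet, and in the input the gap between the groups was wider than the spread within any of them. The log2 fold change of IRΔTan over NCD control was 1.17 ± 0.22 (SE) in IP and 1.74 ± 0.23 in input. Over HFD control, in a fit of all 20 libraries, it was 1.85 ± 0.23 in IP and 2.06 ± 0.23 in input. These values rest on 245 to 531 estimated counts in IRΔTan IPs and 127 to 234 in NCD control IPs.

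Its receptor gene Ccr9 and the decoy receptor gene Ackr4, which takes up Ccl25, did not pass the expression filter and were not tested. Their mean levels were below 1 CPM in each of the 6 groups of libraries. The 10 microglia and macrophage markers, which mark cells that respond to chemokines, summed to 28.9 to 31.1 CPM in IRΔTan IPs and 45.2 to 54.7 CPM in NCD control IPs, with none averaging under 0.1 CPM, while in input they summed to 143 to 169 CPM in IRΔTan and 162 to 221 CPM in NCD controls. The 7 T and B cell markers summed to 3.73 to 3.92 CPM in IRΔTan IPs and 6.63 to 9.56 CPM in NCD control IPs. In IP both sums were lower where Ccl25 was higher, and their part in its level was not tested.

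Pex11g was higher by a similar factor in both fractions. In IP it had 6.85, 8.24 and 8.01 CPM in IRΔTan, against 3.47, 5.21, 3.87 and 4.75 CPM in HFD controls and 3.65, 3.34 and 3.69 CPM in NCD controls. In input it had 6.46, 7.16 and 6.64 CPM in IRΔTan, against 2.85, 4.25, 2.32 and 3.48 CPM in HFD controls and 3.66, 3.39 and 3.76 CPM in NCD controls. No IRΔTan pool overlapped a control pool. The log2 fold change over NCD control was 1.11 ± 0.18 in IP and 0.91 ± 0.18 in input, and over HFD control it was 0.83 ± 0.19 in IP and 1.08 ± 0.19 in input. IPs of IRΔTan held 235 to 260 estimated counts of Pex11g and those of NCD controls 127 to 141.

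Pnpla6 and Trappc5 were higher in IRΔTan than in NCD controls by less. Pnpla6 had 26.9, 28.1 and 25.4 CPM in IRΔTan IPs against 20.2, 21.7 and 19.3 CPM in NCD control IPs, and 41.6, 38.4 and 42.9 CPM in IRΔTan inputs against 30.1, 34.7 and 30.4 CPM in NCD control inputs. Its log2 fold change was 0.39 ± 0.10 in IP and 0.37 ± 0.10 in input. Trappc5 had 40.9, 46.3 and 44.7 CPM in IRΔTan IPs against 36.0, 40.6 and 34.3 CPM in NCD control IPs, so that the pools came close without overlapping. Its log2 fold change was 0.25 ± 0.09 in IP and 0.21 ± 0.09 in input. Against HFD controls Pnpla6 kept no overlap only in input, where the log2 fold change was 0.56 ± 0.10, and in IP it was -0.24 ± 0.10.

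Pet100 and Stxbp2 separated the groups in input only. Pet100 had 14.1, 16.4 and 15.9 CPM in IRΔTan inputs, against 13.5, 11.4 and 12.9 CPM in NCD control inputs, and its log2 fold change was 0.31 ± 0.15 in IP and 0.30 ± 0.15 in input. Stxbp2 had 8.67, 7.40 and 8.69 CPM in IRΔTan inputs, against 8.85, 10.4 and 12.0 CPM in NCD control inputs, and its log2 fold change was -0.26 ± 0.21 in IP and -0.34 ± 0.22 in input. The pools of Pet100 and of Stxbp2 overlapped in IP. Xab2, Zfp358, Mcoln1 and Arhgef18 overlapped in both fractions, with log2 fold changes between -0.10 and 0.12 in IP and between -0.13 and 0.10 in input.

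In IP, 4 of the 10 genes did not overlap between IRΔTan and NCD control pools, all higher in IRΔTan, where 11.3% of 13520 tested genes did so in either direction, 5.66% higher and 5.62% lower. In input, 5 did not overlap with IRΔTan higher and 1 with IRΔTan lower, where 13.1% of tested genes did so, 6.82% higher and 6.3% lower. Those that did so with IRΔTan higher in both fractions were 4, Ccl25, Pex11g, Pnpla6 and Trappc5, where 0.806% of tested genes did so, 0.769% did so with IRΔTan lower, and 1.58% in either direction. Since the genes were chosen with these differences known, nothing is read from these shares. Only Ccl25 and Pex11g also stood above the HFD controls in both fractions. Of 13680 tested genes, 7 (0.0512%) stood apart from both control groups in both fractions, 0.0219% above and 0.0292% below them, and the others, chosen after their values were seen, were Nsfl1c, which was higher, and Trem2, H2-Oa, Tnni1 and C1qa, which were lower.

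The values on which the genes were chosen were then set side by side in the 2 fractions, which were taken from the same pools. Over the 10 genes, the log2 fold change in IP and in input had the same sign for 10 of 10 and was within 0.1 for 8 of 10. The share of all tested genes that did so was not counted, so that nothing is read from these counts. Over all tested genes the median absolute log2 fold change was only 0.13 in IP and 0.07 in input. The difference between the fractions ran from -0.57 ± 0.32 for Ccl25 to 0.21 ± 0.25 for Pex11g, whereas for Insr it was -1.35 ± 0.17. The median log2 fold change of the 10 genes was 0.19 in IP and 0.16 in input, beside 0.00 over all tested genes in each.

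**Figure D2:**
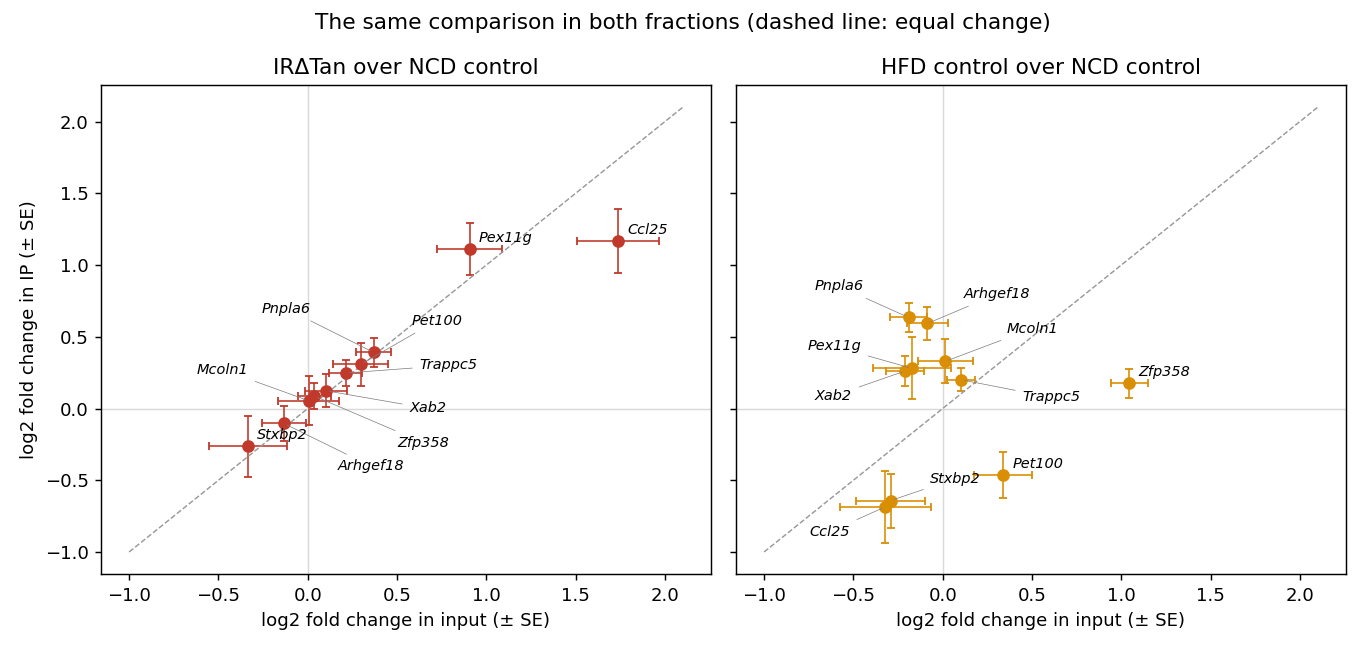
log2 fold change in IP (vertical axis) against that in input (horizontal axis) for the 10 genes, with SE bars, for IRΔTan over NCD control (left) and HFD control over NCD control (right); the dashed line marks an equal change. The IRΔTan values lie near the line apart from Ccl25, which lies below it, and several of the HFD values, such as that of Zfp358, lie far from it.

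The annotation places 89 genes besides Insr within 2 Mb of it, of which 61 were in the count table and 26 were tested, the 10 genes and 16 others. Of the 16 others, 2 did not overlap between IRΔTan and NCD controls in IP and 6 in input, beside 11.3% and 13.1% of all tested genes, and 1 did not overlap in both. This was Elavl1, an RNA-binding protein gene whose first exon overlaps that of Ccl25 head to head, with a log2 fold change of 0.23 ± 0.08 in IP and 0.30 ± 0.08 in input. Farther along the chromosome, 1 of 22 tested genes at 2 to 10 Mb, 2 of 70 at 10 to 25 Mb and 9 of 589 beyond 25 Mb did not overlap in both fractions. Of all tested genes 1.58% did so.

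At the edge of the 2 Mb limit stood the bile acid transporter gene Slc10a2, 1.80 Mb away, with log2 fold changes of 0.09 in IP and -0.26 in input. The next tested gene outside was Efnb2, at 5.34 Mb, with 0.30 in IP and -0.04 in input. By position, Arhgef18 at 0.11 Mb had -0.10 in IP, its neighbour Pex11g at 0.18 Mb 1.11, and Ccl25 at 1.05 Mb 1.17. Since these genes were chosen with their differences known, no trend with distance is read from them.

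**Figure D3:**
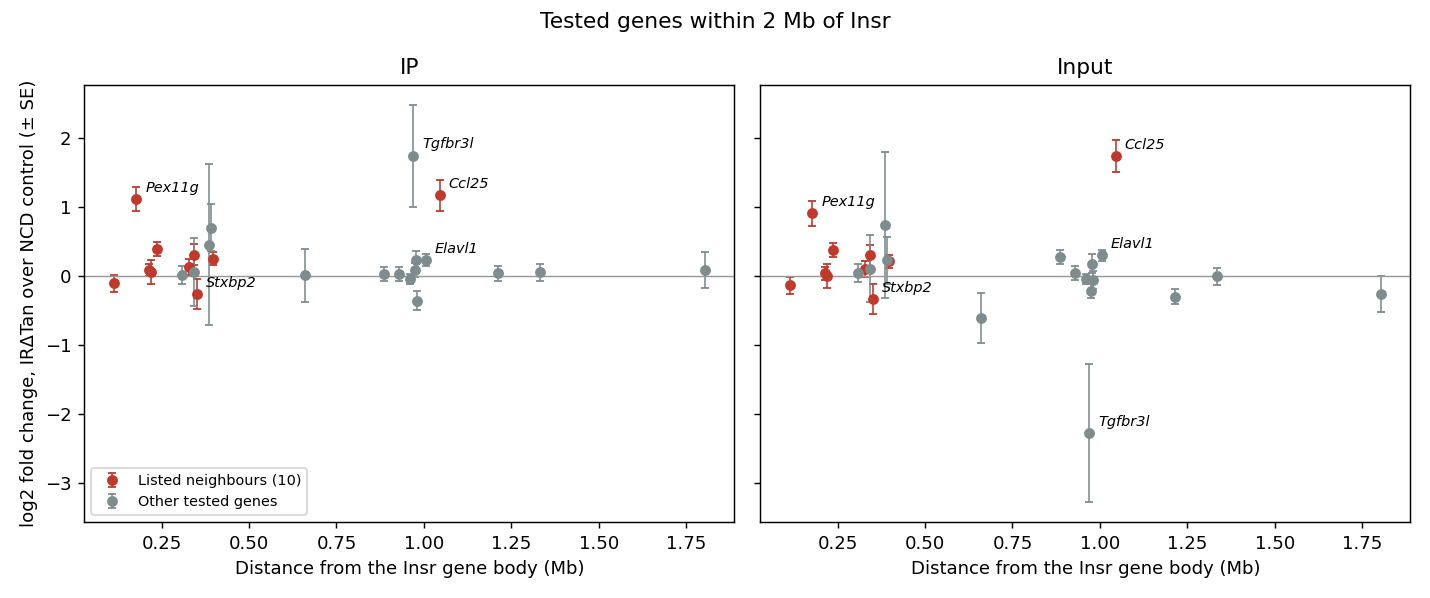
log2 fold change of IRΔTan over NCD control (vertical axis, ± SE) against distance from the Insr gene body in Mb (horizontal axis) for the 26 tested genes within 2 Mb, in IP (left) and input (right). Pex11g and Ccl25 stand above 0.9 in both fractions, and Tgfbr3l, farthest from 0, has wide error bars and opposite signs in the 2 fractions.

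HFD feeding was compared with NCD in control mice, a contrast that shares the NCD control libraries with the one known when the genes were chosen. HFD IPs also differed from NCD control IPs in depth and in the share of counts in tested genes, as given above. The part of this in the IP values was not tested. In IP, 7 of the 10 genes passed the threshold, 4 higher and 3 lower on HFD, where 52.1% of 13558 tested genes did, 25.7% higher and 26.4% lower. The split was 5 higher and 1 lower with library totals, 6 and 1 with all genes of the count table, and 2 and 3 with DESeq2. Pnpla6 had 26.5, 32.8, 31.5 and 36.1 CPM in HFD IPs, against 20.2, 21.7 and 19.3 CPM in NCD IPs, and rose by 0.63 ± 0.10 on the log2 scale (adjusted p = 0.00014, edgeR). Arhgef18 had 40.0, 59.8, 51.5 and 48.2 CPM in HFD IPs, against 30.9, 31.3 and 37.0 CPM in NCD IPs, and rose by 0.59 ± 0.12 (adjusted p = 0.00058, edgeR). For both genes every HFD pool was above every NCD pool.

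Stxbp2 and Pet100 were lower on HFD in IP. Stxbp2 had 8.62, 8.63, 9.59 and 10.2 CPM in HFD IPs, against 10.6, 18.8 and 14.001 CPM in NCD IPs (log2 fold change -0.64 ± 0.19, adjusted p = 0.0097, edgeR). Pet100 had 14.4, 9.22, 11.4 and 14.6 CPM in HFD IPs, against 15.1, 20.5 and 15.8 CPM in NCD IPs (log2 fold change -0.46 ± 0.16, adjusted p = 0.023, edgeR). The pools of neither gene overlapped. Ccl25, whose pools are given above, was lower by -0.68 ± 0.25 (adjusted p = 0.032), Xab2 higher by 0.26 ± 0.10 (adjusted p = 0.045) and Trappc5 higher by 0.20 ± 0.08 (adjusted p = 0.047), with overlapping pools in all 3. Camsap3, which shares exonic bases with Xab2, also rose, as given below. Pex11g (0.28 ± 0.22, adjusted p = 0.29), Mcoln1 (0.33 ± 0.15, adjusted p = 0.083) and Zfp358 (0.18 ± 0.10, adjusted p = 0.15) did not pass.

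A fit of the IPs alone kept 3 of these calls, Pnpla6, Arhgef18 and Stxbp2. Leaving out HFD pool 2, HFD pool 3, NCD pool 1 or NCD pool 3 gave 4 calls each, the calls of Pnpla6 and Arhgef18 held under all 15 alternatives, and that of Stxbp2 was lost without NCD pool 2 (edgeR adjusted p = 0.096, range 0.0028 to 0.096 over the alternatives). The calls of Ccl25 and Xab2 were each lost under 9 of the 15 alternatives, that of Trappc5 under 8 and that of Pet100 under 5.

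In whole tissue the diet moved 1 of the 10 genes, where 11.8% of tested genes passed the threshold, 6.4% higher and 5.41% lower. Zfp358 had 33.8, 43.2, 40.6 and 38.4 CPM in HFD inputs, against 19.2, 19.8 and 17.7 CPM in NCD inputs. Its lowest HFD pool lay far above its highest NCD pool, and it rose by 1.04 ± 0.10 on the log2 scale (adjusted p = 6.6e-05, edgeR). In IP its levels were 45.9, 36.1, 39.0 and 39.1 CPM on HFD and 38.0, 34.9 and 33.3 CPM on NCD. IRΔTan inputs, at 19.3, 18.7 and 20.1 CPM, overlapped the NCD range. Ccl25 and Pex11g did not pass the threshold in input, with log2 fold changes of -0.32 ± 0.25 (adjusted p = 0.46) and -0.17 ± 0.22 (adjusted p = 0.67). The HFD log2 fold changes of the 10 genes had the same sign in IP and input for 5 of 10.

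The diet difference itself differed between IP and input for 5 of the 10 genes, where 40.1% of tested genes passed, 21.8% above 0 and 18.4% below. The log2 fold change in IP was above that in input for Pnpla6 (difference of log2 fold changes 0.83 ± 0.15, adjusted p = 0.00049), Arhgef18 (0.68 ± 0.16, adjusted p = 0.0039) and Xab2 (0.47 ± 0.15, adjusted p = 0.019). It was below that in input for Zfp358 (-0.87 ± 0.14, adjusted p = 0.00032) and Pet100 (-0.80 ± 0.23, adjusted p = 0.011), the values of Pet100 being -0.46 in IP and 0.34 in input. No gene passed this test among Ccl25, Pex11g, Trappc5, Mcoln1 and Stxbp2, with adjusted p values between 0.26 and 0.52. The call of Xab2 was lost without HFD pool 3, NCD pool 1 or NCD pool 3, and that of Pet100 without NCD pool 2.

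Cell type markers moved with the diet in IP. All 11 neuron markers rose and summed to 8339 to 10541 CPM in HFD IPs and 5029 to 5973 CPM in NCD IPs. Of 15 tanycyte markers 7 fell and none rose, with sums of 646 to 1434 CPM in HFD IPs and 1551 to 1894 CPM in NCD IPs, and of 10 ependymal markers 8 fell. Oligodendrocyte markers (9 genes) summed to 859 to 1994 CPM in HFD IPs and 606 to 1117 CPM in NCD IPs, and microglia and macrophage markers to 84.9 to 113 CPM in HFD IPs and 45.2 to 54.7 CPM in NCD IPs. None of these lists had a gene averaging under 0.1 CPM in IP. In bulk samples fewer cells of a type and less RNA per cell cannot be told apart. In an IP neither can be told from a change in what was precipitated, and the part of these shifts in the values of the 10 genes was not tested. In input, neuron markers summed to 15194 to 16221 CPM on HFD and 15810 to 17147 CPM on NCD, and none of the 11 passed the threshold. Ependymal markers summed there to 40.3 to 54.6 CPM on HFD and 34.9 to 41.6 CPM on NCD, and 0 of 10 passed. Tanycyte markers summed to 235 to 268 CPM on HFD and 277 to 299 CPM on NCD input, with 1 lower. Microglia and macrophage markers summed to 183 to 282 CPM on HFD and 162 to 221 CPM on NCD input, with 1 higher.

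Among the 16 other tested genes within 2 Mb of Insr, 5 rose and 1 fell on HFD in IP, where 25.7% of all tested genes rose and 26.4% fell. Camsap3, which binds microtubule minus ends, rose by 0.85 ± 0.11, Evi5l by 0.55 ± 0.09, the kinase gene Map2k7 by 0.51 ± 0.09, Prr36 by 0.42 ± 0.10 and Elavl1 by 0.25 ± 0.07 on the log2 scale. Ctxn1 had a log2 fold change of -0.73 ± 0.13 in IP. In input 3 of the 16 rose, namely Ctxn1 (0.74 ± 0.13), Evi5l (0.34 ± 0.09) and Prr36 (0.32 ± 0.10), and none fell. Of all tested genes 6.4% rose and 5.41% fell in input.

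The IP was next set against the input of the same pools, to show where each transcript lay relative to the whole lysate. The IRΔTan libraries, and their difference from controls, were known when the genes were chosen. Nothing is therefore read from the calls and p values of the IRΔTan ratios, which are given as description. In IRΔTan pools 4 of the 10 genes were higher and 2 lower in IP, and in NCD controls 3 were higher and 1 lower, where 66.9% of tested genes passed the threshold in each. Of all tested genes, 34.2% were higher and 32.6% lower in IRΔTan IPs, and 33.9% were higher and 33% lower in NCD control IPs. Zfp358 had 38.7, 36.1 and 38.0 CPM in IRΔTan IPs against 19.3, 18.7 and 20.1 CPM in the inputs of those pools. Its log2 ratio of IP over input was 0.98 ± 0.09 in IRΔTan (adjusted p = 3.1e-07, edgeR) and 0.93 ± 0.09 in NCD controls (adjusted p = 5.5e-07, edgeR). In HFD controls it was 0.04 ± 0.09 (adjusted p = 0.76, edgeR), the input having reached the level of the IP.

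Pnpla6 was depleted from the IP on NCD. Its log2 ratio was -0.58 ± 0.10 in IRΔTan (adjusted p = 1e-04, edgeR) and -0.61 ± 0.10 in NCD controls (adjusted p = 7.9e-05, edgeR), against 0.19 ± 0.10 in HFD controls (adjusted p = 0.1, edgeR), and the NCD control call was lost with library totals (adjusted p = 0.061). Xab2 was higher in IP in all 3 groups, by 0.44 ± 0.12 in IRΔTan (adjusted p = 0.0036), 0.86 ± 0.10 in HFD controls (adjusted p = 2.4e-06) and 0.42 ± 0.12 in NCD controls (adjusted p = 0.0051). Pet100 was higher in IP by 0.48 ± 0.15 in IRΔTan (adjusted p = 0.011) and 0.47 ± 0.15 in NCD controls (adjusted p = 0.014), and in HFD controls its ratio was -0.36 ± 0.15 (adjusted p = 0.052). Without NCD pool 2 the NCD control calls of Pet100 (0.24, adjusted p = 0.21) and Xab2 (adjusted p = 0.061) were lost, and in IRΔTan that of Pet100 was lost without IRΔTan pool 2 (adjusted p = 0.067) and that of Xab2 without IRΔTan pool 1 (adjusted p = 0.069). Ccl25 was lower in IP in IRΔTan (-0.60 ± 0.22, adjusted p = 0.024, a call lost without IRΔTan pool 2 or 3), and its ratio was -0.03 ± 0.23 in NCD controls (adjusted p = 0.91). The gap between these ratios restates the fold changes on which Ccl25 counts as chosen, larger in input than in IP.

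Stxbp2 was higher in IP by 0.57 ± 0.22 in IRΔTan (adjusted p = 0.03, a call lost without IRΔTan pool 2 or 3), and in NCD controls its ratio was 0.50 ± 0.21 (adjusted p = 0.052, and 0.029 with the pool as a block). Arhgef18 rose in IP over input in HFD controls (0.39 ± 0.11, adjusted p = 0.0054), and in NCD controls its ratio was -0.26 ± 0.12 (adjusted p = 0.074, and 0.045 with the pool as a block). Pex11g, Trappc5 and Mcoln1 passed in none of the 3 groups, with adjusted p values of 0.083 or more in edgeR. In HFD controls the 2 genes past the threshold were Xab2 and Arhgef18, where 54.2% of tested genes passed, 27.7% higher and 26.5% lower in IP. Leaving out IRΔTan pool 2 left 3 calls in IRΔTan, leaving out NCD pool 2 left 2 in NCD controls, and leaving out HFD pool 1 gave 5 in HFD controls.

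**Figure D4:**
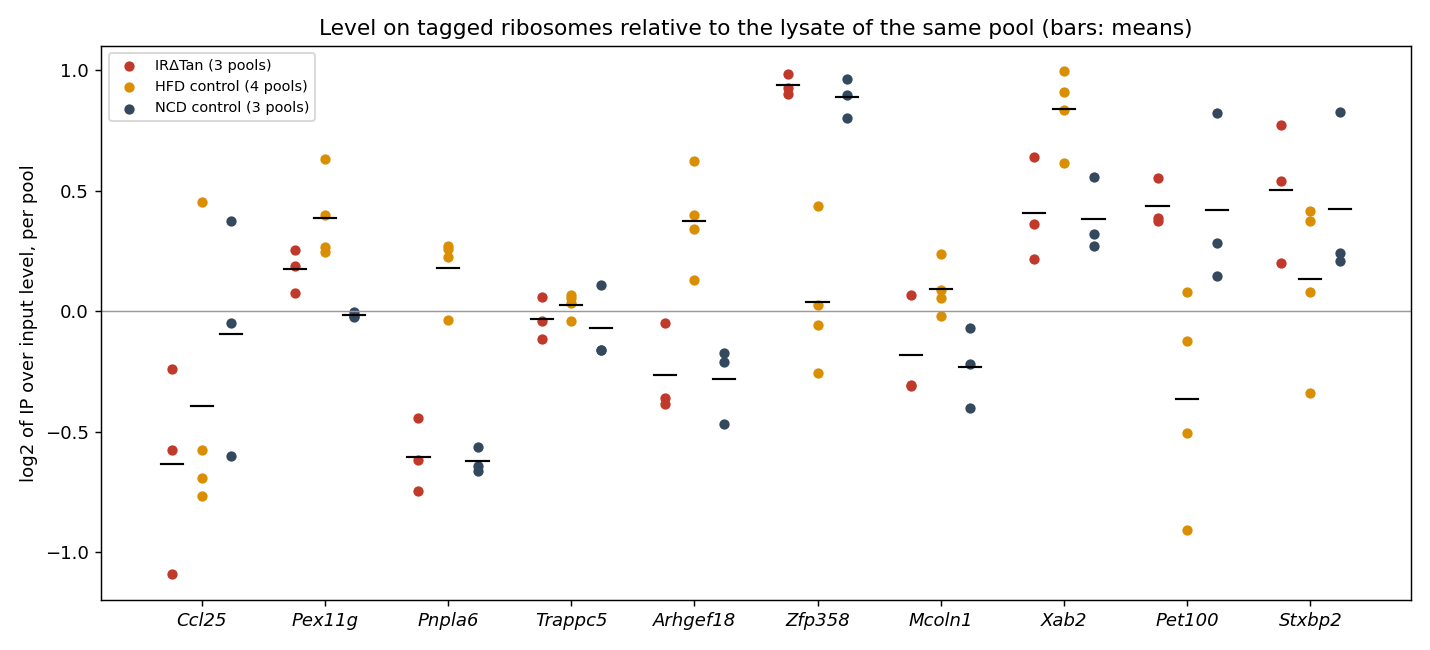
log2 ratio of IP over input level in each pool (vertical axis) for the 10 genes, with IRΔTan, HFD control and NCD control from left to right at each gene; points are pools and bars their means. Zfp358 lies near 0.9 in IRΔTan and NCD controls and near 0 in HFD controls, and Pnpla6 lies below 0 in IRΔTan and NCD controls.

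Genes that work with the 10 were taken from 11 lists of partners, of which 107 genes were tested. In IRΔTan against NCD control, 0 of 107 passed the threshold in IP and 0 in input, with median log2 fold changes of 0.02 in each. Of all 13520 tested genes, 3 were higher and 10 lower in IP, and 1 was higher and 0 lower in input. With so few calls among all genes, nothing is read from the 0 of 107. On HFD in IP, 34 of the 107 rose and 35 fell, where 25.7% of all tested genes rose and 26.4% fell. In input 5 of the 107 rose and 7 fell, where 6.4% of all tested genes rose and 5.41% fell. Cytochrome c oxidase assembly genes, the partners of Pet100, had 1 of 17 higher and 7 lower in HFD IPs, among them Coa5 (-0.82 ± 0.08) and Cox14 (-0.97 ± 0.13). RhoA exchange factors and effectors, the group of Arhgef18, had 5 of 11 higher and 2 lower, among them Arhgef11 (0.94 ± 0.12) and the RhoA-dependent kinase gene Rock2 (0.64 ± 0.09).

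Of the remaining groups in HFD IPs, TRAPP complex genes had 5 of 13 higher and 6 lower, among them Trappc12 (0.78 ± 0.08) and Trappc6b (-0.56 ± 0.07). The Stxbp2 group had 6 of 14 higher and 5 lower. Splicing and repair partners of Xab2 had 4 of 12 higher and 3 lower, among them Prpf19 (0.64 ± 0.07). Peroxisome division genes of the Pex11g group had 2 of 6 higher and 4 lower, among them Fis1 (-0.79 ± 0.10), and peroxins of the import machinery 5 of 13 higher and 2 lower. Patatin-like phospholipases and enzymes of glycerophosphocholine metabolism, the group of Pnpla6, had 3 of 10 higher and 4 lower, lysosomal cation channels and their regulators, the group of Mcoln1, 2 of 6 higher and 1 lower, and homeostatic chemokines 1 of 5 higher and 1 lower. The 2 higher in the Mcoln1 group were not channels but Fig4 (1.06 ± 0.16) and Pikfyve (0.72 ± 0.12), which act in making a phosphoinositide that activates the channel.

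Over the 20 libraries, the gene whose log2 CPM ran most like that of Ccl25 was Gm15446 on chromosome 5 (Pearson's r = 0.84), ahead of Nsfl1c (0.79) and Otud1 (0.76) on chromosome 2. Those most like Pex11g were Nsfl1c (0.72), Ccl25 (0.71) and Bbs10 (0.70) on chromosome 10. These r describe libraries that share pools and fractions. They include the IRΔTan libraries, whose difference was known when Ccl25 and Pex11g were chosen, so that nothing is read from the likeness of these genes to each other. Gm15446 had 13.98 to 15.99 CPM in IRΔTan IPs, against 2.42 to 5.04 CPM in HFD and 5.78 to 7.75 CPM in NCD control IPs, while in input its IRΔTan range of 20.3 to 30.4 CPM overlapped the NCD control range of 5.37 to 22.1 CPM. Nsfl1c had 86.2 to 90.1 CPM in IRΔTan IPs, against 68.9 to 79.3 CPM in HFD and 68.8 to 79.2 CPM in NCD control IPs.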

How the data were processed

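Libraries were pre-amplified (Ovation V2) and made with Nextera XT. The authors ran the nf-core rnaseq pipeline on GRCm38.p6 and deposited gene-level estimated counts (Salmon 0.14.1), with STAR and DESeq2 1.30.0 also named in the submitters' processing notes. The deposited estimated counts cover 44674 genes and 20 libraries, and 28.0% of values are not whole. The other deposited tables hold the authors' fold changes, adjusted p values and tanycyte marks, of which only gene identifiers and names were used.

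Rounded counts went into edgeR 4.0.16 under R 4.3.3, whose quasi-likelihood fit served for every test (TMM scaling, robust fit, a mean per group and fraction), on genes of the authors' tables that passed the expression filter with a minimum count of 10. The IRΔTan fit held 12 libraries and 13520 genes, the HFD fit 14 libraries and 13558 genes, and the fit of all libraries 13680 genes. P values were adjusted by Benjamini–Hochberg over all genes tested, with a threshold of 0.05. The 10 genes and the gene lists were chosen with earlier results of these data known. Named were the 10 genes, Insr, tested genes within 2 Mb past the threshold (at most 6 per comparison), at most 2 genes per partner list, the 3 most alike genes (log2 of CPM plus 0.5) and defining markers.

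Pools were separate samples. IP and input of one pool came from one lysate, and their deviations from group means correlated at 0.06 to 0.40 across genes, over 0.1 in 9 of 10 pools. Pools with the same number in different groups correlated at -0.35 to 0.28 and were not treated as pairs. Positions came from GENCODE M21 and promoters from RefSeq, both on GRCm38. Total counts were 29469000 to 59385000 per library, at which Pex11g had 127 to 141 counts in NCD control IPs. The scripts were tested on simulated data. Alternatives were DESeq2 1.42.0, other scaling, other filters and gene sets, other sets of libraries, replicate blocks and each pool left out.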

Additional observations from a re-analysis of the deposited data

Results flagged for a closer look

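Of 20 groups of 4 HFD pools checked (10 genes in each fraction), 1 held a pool far from the rest, where chance alone marks about 1 in 20. Ccl25 had 4.51 CPM in the IP of HFD pool 1, against 2.55 to 2.66 CPM in the other 3 HFD IPs. In NCD IPs it had 3.34 to 6.50 CPM, so that this pool lay within the NCD range.

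The effect of HFD differed between IP and input for 5 of 10 genes by the interaction term in edgeR. The difference of log2 fold changes was 0.83 for Pnpla6 and 0.68 for Arhgef18, both of which were higher on HFD in IP and not past the threshold in input. It was 0.47 for Xab2. It was -0.87 for Zfp358, which was higher on HFD in input and not past the threshold in IP, and -0.80 for Pet100, which was lower on HFD in IP.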

How the results depend on the processing

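For single genes, 1272 of 1360 values under the alternatives kept their side of the threshold (or, with no test, moved by less than the spread between pools), 47 lost a call, 34 gained one, 7 moved by more than that spread and none of the called ones reversed. Values not called could change sign and still be counted among the 1272. Arhgef18 for IP against input in NCD controls, for instance, was -0.26 and reached 0.13 under the alternatives. The number of the 10 genes past the threshold for HFD against NCD in IP was 7, and 3 in a fit of IPs alone, and 4 to 6 with 1 pool left out. In input it was 1, and 2 in a fit of inputs alone, and 1 with any pool left out. For the interaction it was 5, and 4 to 5 with 1 pool left out. For IP against input in HFD controls it was 2, and 8 with library totals (which moved the median of all genes by 0.52 on the log2 scale), 4 with all genes of the count table, 4 in the fit of all 20 libraries and 2 to 5 with 1 pool left out. In IRΔTan it was 6, and 3 to 6 with 1 pool left out, and in NCD controls 4, and 2 to 5. Library totals also moved the median of all genes by 0.39 in NCD controls and 0.29 in IRΔTan for that ratio, by 0.11 for the interaction and by 0.11 for IRΔTan against HFD input. The cause of these changes was not tested.

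With the pool as a block, the interaction kept 5 calls and IP against input gave 6 in IRΔTan, 2 in HFD controls and 6 in NCD controls, Stxbp2 and Arhgef18 being added in NCD controls and no other call changing. With the pool number as a block, which pairs no animals, 5 calls remained for HFD in IP, those of Ccl25 and Xab2 being lost, and 1 in input. That block gave median log2 fold changes of 0.19 in IP and 0.15 in input for IRΔTan against NCD control. With 1 pool left out these medians were 0.15 to 0.27 in IP and 0.12 to 0.20 in input, and against HFD controls -0.05 to 0.02 in IP and 0.00 to 0.11 in input. Of the other tested genes near Insr, 0 of 12 within 1 Mb and 1 of 16 within 4 Mb did not overlap in both fractions, fewer genes being within 1 Mb and the 4 Mb window holding the same 16 tested genes as that of 2 Mb, so that it could not differ.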
